A study of Rattus norvegicus with 24 samples.

Results

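The kidney methylome of non-pregnant (NP) BN rats was compared with that of non-pregnant CD rats, using every CpG and strand that had at least 10 reads in each of the 6 rats. These were 704235 CpGs, from 2571166 listed in any of the 12 rats of the study that were profiled by reduced representation bisulfite sequencing (RRBS). The rats were females, aged 2 months by one label and 6 to 8 weeks by another, the tissue was a kidney section holding cortex and medulla, and the groups were BN-NP (n = 3) and CD-NP (n = 3), with no treatment in either. BN is the inbred Brown Norway strain and CD is the outbred Sprague-Dawley stock, so that BN rats are near copies of each other whereas CD rats differ in their genomes. Another 3 rats of each strain at pregnancy day 18 (BN-P18 and CD-P18) were used only to read the same CpGs again in other animals. A strain in this design stands for the whole genome of its rats, their breeding colony included, and 3 rats sample the outbred CD stock only thinly.

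A CpG is a C followed by a G, and in mammals most CpGs carry a methyl group on the C of both strands. Clusters of CpGs at gene starts are usually free of it, and methylation of such a cluster often accompanies a silent gene. RRBS cuts DNA at CCGG with MspI, keeps short fragments, and converts unmethylated C to T with bisulfite, so that it reads mainly CpG-dense stretches and gives a methylation level as the percent of reads that kept their C. Reads were aligned to Rnor_6.0, an assembly of the BN strain. The listed positions come from this assembly, so a CpG present only in CD rats may be missing from the lists. A rat in which a CpG reads T in place of C, or has lost its G, gives unmethylated reads there, so a change of the DNA sequence and a change of methylation cannot be told apart in these lists. The lists hold no expression values, so the kidney label could not be checked against marker genes.

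Sequences of 5 gene starts are shown as examples, chosen after values were seen, in which CpGs that differed or that belong to a called region lay in the bases before the start. Each is the 150 bases before the start in 5′ to 3′ direction of the gene, from RefSeq (GRCr8), placed on the minus strand of Rnor_6.0 by the spacing of its CpGs. Mt1, a metal-binding metallothionein, lay at chr19:11303008-11303157, and its capitals mark the 4 CpGs called lower in BN. Capitals in the others mark those tested CpGs of the called region that lie in the bases shown, and the regions of Ddx46 and Dcdc2c extend past the start. Ddx46, an RNA helicase of the spliceosome, lay at chr17:9519516-9519665. RT1-CE5, a class I histocompatibility gene whose start is shared with another RefSeq entry, lay at chr20:4896992-4897141. Nobox, a transcription factor of the oocyte, lay at chr4:72756888-72757037, and Dcdc2c, a doublecortin domain gene, at chr6:47811854-47812003.
Mt1: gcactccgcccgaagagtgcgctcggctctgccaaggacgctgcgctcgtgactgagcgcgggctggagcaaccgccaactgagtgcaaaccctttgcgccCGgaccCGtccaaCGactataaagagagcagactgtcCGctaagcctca
Ddx46: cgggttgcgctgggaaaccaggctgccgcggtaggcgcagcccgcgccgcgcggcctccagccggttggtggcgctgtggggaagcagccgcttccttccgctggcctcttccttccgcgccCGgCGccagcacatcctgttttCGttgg
RT1-CE5: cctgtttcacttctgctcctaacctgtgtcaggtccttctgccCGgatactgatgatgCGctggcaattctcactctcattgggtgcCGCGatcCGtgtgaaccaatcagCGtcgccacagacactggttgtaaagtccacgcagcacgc
Nobox: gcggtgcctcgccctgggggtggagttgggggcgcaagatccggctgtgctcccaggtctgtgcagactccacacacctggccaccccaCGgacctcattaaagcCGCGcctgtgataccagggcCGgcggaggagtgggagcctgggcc
Dcdc2c: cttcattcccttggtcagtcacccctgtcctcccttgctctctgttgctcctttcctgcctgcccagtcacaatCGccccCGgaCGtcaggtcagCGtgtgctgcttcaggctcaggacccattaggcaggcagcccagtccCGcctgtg

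Among the 704235 CpGs, 3249 (0.461%) were differentially methylated between BN-NP and CD-NP. A differentially methylated CpG (DMC) was one with over 10 percentage points between the strains and an adjusted p under 0.05 (Benjamini-Hochberg) in a logistic model whose dispersion was moderated by limma. Methylation was higher in BN at 2594 of them (0.368% of the CpGs tested) and lower in BN at 655 (0.093%). The part of the alignment to a BN assembly in this imbalance was not tested. Of 75791 regions of at least 3 tested CpGs with gaps of at most 100 bases, 908 differed (1.2%), 727 of them higher in BN (0.959%) and 181 lower (0.239%). The mean level over all tested CpGs was nearly the same in the strains. It was 38.3, 38.2 and 38.3% in the BN rats and 38.5, 38.2 and 38.3% in the CD rats, or 38.29 ± 0.0668% against 38.33 ± 0.142% (SD, n = 3 each). The difference of -0.046 points was smaller than the spread among CD rats (exact permutation test, two-sided p = 0.8, where the smallest possible p is 0.10). The sign of this difference depended on the weighting, since it was 1.39 points when CpGs were weighted by reads (exact permutation test, p = 0.3), and on the rats, since it was 0.032 points without CD rat 1.

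The 3 BN rats and the 3 CD rats did not overlap at 2819 of the 3249 DMCs, against 6.37% of all tested CpGs. They overlapped at 430 DMCs. Among regions the rats did not overlap at 895 of the 908 that differed, against 12.8% of all regions. DMCs and called regions were chosen on these same levels, so the small overlap follows in part from the call. With the dispersion of each CpG or region estimated alone, on 3 rats a strain, 0 CpGs and 0 regions passed the adjusted p, while 6688 CpGs and 2797 regions had an unadjusted p under 0.05 in that logistic model, so all calls rest on the dispersion shared across CpGs. Coverage of CpGs summed to between 37343198 and 44738436 reads in BN rats and between 21669162 and 36912429 in CD rats, and the median coverage of the tested CpGs was 20 to 29 reads in BN and 16 to 24 in CD. At 482675 tested CpGs the strains differed by more than 0 and at most 10 points, which could not be called under the 10-point minimum.

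DMCs higher in BN were mostly large differences, whereas those lower in BN were smaller. The median difference was 52.9 points among the former and -34.5 among the latter, against a median absolute difference of 1.75 over all tested CpGs. Among DMCs higher in BN, 1405 (54.2%) exceeded 50 points, compared with 100 (15.3%) of those lower in BN. Between 10 and 20 points the directions were balanced, with 55 DMCs higher and 54 lower. From 20 to 30 points there were 250 and 162, from 30 to 40 points 469 and 223, from 40 to 50 points 415 and 116, and from 50 to 60 points 344 and 84. Above that the lower class nearly emptied. From 60 to 70 points 269 DMCs were higher and 11 lower, from 70 to 80 points 230 and 3, and from 80 to 90 points 261 and 1. Over 90 points, 301 were higher and 1 was lower. The class of 90 to 100 points therefore held more DMCs higher in BN than the class of 70 to 80 points. Among all tested CpGs, 20452 were higher and 25758 lower in BN by 10 to 20 points, and few of these were called. Nearly all differences over 40 points were called, so the sizes of DMCs follow in part from the call.

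**Figure D1:**
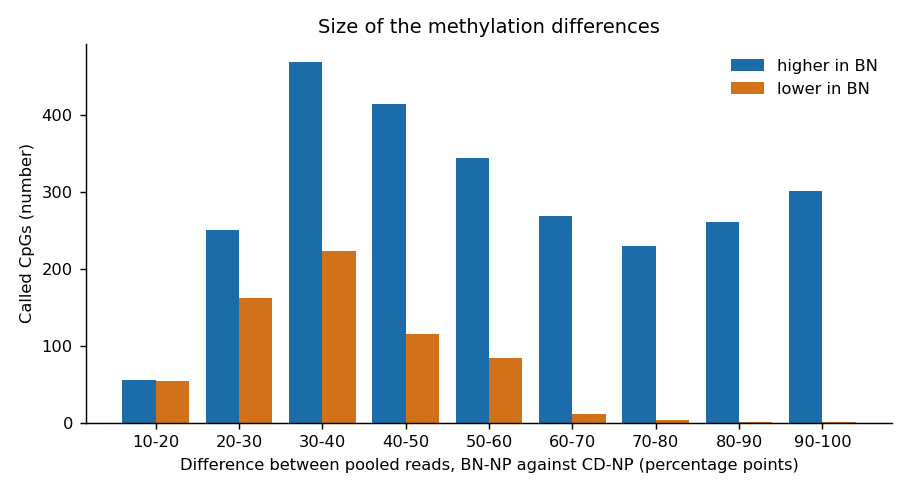
Differentially methylated CpGs by size of difference between BN-NP and CD-NP rats, in classes of 10 percentage points (x axis), as number of CpGs (y axis), with DMCs higher and lower in BN as separate bars. DMCs higher in BN extend to the class of 90 to 100 points (301 CpGs), whereas those lower in BN fall to 11 at 60 to 70 points and to 1 above 80.

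Tested CpGs were mostly at the extremes of the scale, 48.9% with a mean level under 10% and 18.8% over 90%. DMCs came largely from in between. Of CpGs with a mean level of 40 to 60%, 3.13% were DMCs (1236, of which 1090 were higher in BN), compared with 0.0691% at 0 to 20% and 0.105% at 80 to 100%. A CpG at opposite ends in the strains has a middle mean, so this share follows in part from the definition. The median level of DMCs higher in BN was 88.8% in BN and 19.2% in CD, and 1196 of them were over 90% in BN. At DMCs lower in BN the median was 19.8% in BN and 65.5% in CD. There were 346 tested CpGs with BN at 90% or more and CD at 10% or less, and 2 with the reverse. At 15 CpGs every BN read was methylated and every CD read was unmethylated, and at 0 CpGs was the reverse seen.

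Single CpGs with the widest differences showed this pattern without gradation. At base 9282924 of chromosome 2 (plus strand) all 3 BN rats were at 100% on 17, 23 and 38 reads, and all 3 CD rats at 0% on 40, 25 and 14 reads. The tested CpG 3 bases away differed by only 2.5 points. Base 155781749 of chromosome 4 (plus strand) was at 100% in each BN-NP rat and at 0% in each CD-NP rat, and at P18 the BN rats were at 97.4, 93.9 and 97.5% and the CD rats at 0, 0 and 2.78%. Here the tested CpG 3 bases away differed by 42.4 points. Base 100270630 of chromosome 8 (minus strand) was likewise at 100% against 0%, and at P18 at 100% in all 3 BN rats against 0, 4.55 and 0%. Its nearest tested CpG, at 17 bases, had a difference of 5.26 points. Bases 94951785 of chromosome 6 and 16502572 of chromosome 17 were also at 100% against 0%, and the nearest tested CpG, 12 bases away in each case, differed by 6.38 and 6.1 points. All 5 lay over 50000 bases from the nearest gene start that could be placed.

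In the other direction the widest difference was at base 124792200 of chromosome 2 (minus strand), where the BN rats were at 0% and the CD rats at 96, 95.2 and 81.3%. The BN-P18 rats were again at 0% and the CD-P18 rats at 100, 95 and 100%. Its nearest tested CpG, at 12 bases, had a difference of -0.534 points. Base 22803703 of chromosome 9 was at 8, 6.67 and 10% in BN and at 88.9, 91.7 and 100% in CD, on 10 to 25 reads. Base 140680094 of chromosome 7, 36019 bases before the start of Tuba1c, a tubulin gene, was at 18.5, 11.4 and 17.4% in BN against 95.2, 95.2 and 83.3% in CD, and differed by -79.8 points at P18. The CpG 42 bases from it differed by -26.2 points. Base 161673934 of chromosome 2 differed by -70.4 points at NP but by -25.7 at P18, where the test was not passed (adjusted p = 0.707). Its nearest tested CpG, at 12 bases, had a difference of -62.5 points. Base 12999599 of chromosome 9 was at 11.1, 14.3 and 13.9% in BN and at 85.7, 76.5 and 81.0% in CD.

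At the threshold the calls rested on small margins. The last DMC inside the adjusted p of 0.05 among those higher in BN was base 88844647 of chromosome 3, at 16.1% in BN and 0% in CD (adjusted p = 0.0499), and the first outside was base 43413166 of chromosome 12, at 90% and 56% (adjusted p = 0.0503). Among those lower in BN, base 64202117 of chromosome 10 was just inside, at 0% against 20.7%, and base 46719869 of chromosome 17 just outside, at 54.6% against 84.9%.

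The levels varied more among CD than among BN rats. The range among the 3 rats exceeded 50 points at 2092 tested CpGs (0.297%) in CD and at 444 (0.0630%) in BN. At DMCs higher in BN the median range was 22.2 points in CD and 9.05 in BN, and at DMCs lower in BN it was 15.0 and 8.76. Over all tested CpGs it was 5.56 in CD and 5 in BN, and at mean levels of 20 to 80% it was 17.6 and 15.0. A range also depends on the level, and at DMCs of either direction the BN median lay nearer an end of the scale. Median coverage of the tested CpGs was lower in CD rats 2 and 3 (18 and 16 reads) than in any BN rat, but not in CD rat 1 (24 reads). Low coverage by itself widens a range. The parts of coverage and level in the difference between the ranges were not tested. Averaged over all tested CpGs, any 2 BN rats differed by 4.71 to 5 points, any 2 CD rats by 5.28 to 5.58, and a BN and a CD rat by 4.95 to 5.74. The span between strains enclosed that among CD rats.

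Of the 2594 DMCs higher in BN, 1489 had each BN rat at 80% or more. In 407 of these all 3 CD rats were at 20% or less, in 245 it was 2 of them, in 329 it was 1, and in 508 it was none. At 161 CpGs some CD rats were at 20% or less while others were at 80% or more, and at 266 all CD rats lay between. Among the 407 CpGs with 3 low CD-NP rats, 293 were covered in the P18 rats. All 3 CD-P18 rats were again at 20% or less at 215 of them, all 3 BN-P18 rats at 80% or more at 246, and at 20 a CD-P18 rat was at 80% or more. Of the other 721 covered CpGs, 63 had 3 CD-P18 rats at 20% or less.

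Clustering separated the directions. Both Cs of a CpG, 1 on each strand, are read from different reads, and both were tested for 639 of the DMCs higher in BN. The C of the other strand differed by over 10 points in the same direction at 601 (94.1%), and at 347 of 349 (99.4%) where the DMC exceeded 50 points. Among DMCs lower in BN this held for 90 of 108 (83.3%). The same measure over all tested CpGs was 4.12%. The nearest tested CpG within 50 bases behaved otherwise. It differed in the same direction by over 10 points at 532 of 2389 DMCs higher in BN (22.3%) but at 462 of 583 DMCs lower in BN (79.2%), against 5.13% over all tested CpGs. Among DMCs over 50 points the shares were 184 of 1286 (14.3%) for those higher and 79 of 90 (87.8%) for those lower. Tested CpGs that differed by over 10 points without being called had such a neighbour in 28.6% of cases when higher and 29.4% when lower. The median difference at the nearest CpG was 1.77 points beside DMCs higher in BN and -25.5 points beside those lower in BN. Without a block of chromosome 1 with 96 of these DMCs, the share for those lower was 75.4%. Neighbouring CpGs share reads and were not treated as replicates.

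**Figure D2:**
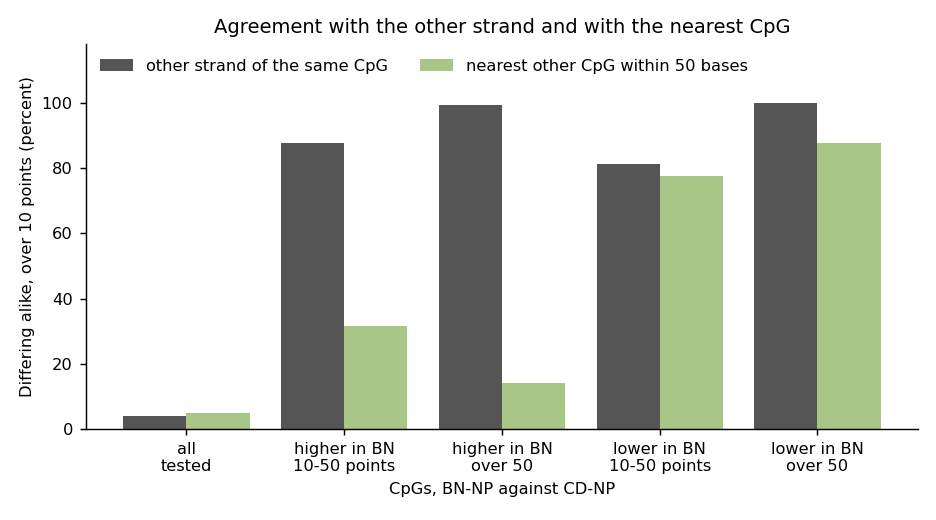
Share of CpGs (y axis, percent) whose opposite-strand C, or whose nearest tested CpG within 50 bases, differed by over 10 points in the same direction, for all tested CpGs and for DMCs higher and lower in BN of 10 to 50 points and of over 50 points. The opposite strand differed alike in 81.3 to 100% of DMCs of every class, whereas the nearest CpG did so for 31.6 and 14.3% of DMCs higher in BN and for 77.7 and 87.8% of those lower.

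Runs of DMCs of 1 direction, with gaps of at most 200 bases, gave the same contrast. Of the DMCs higher in BN, 1756 stood alone and 297 runs held 2, and 85.3% of DMCs were at runs of a single CpG position. Only 46 runs held 3 or more and these included 244 DMCs (9.41%). Of the DMCs lower in BN, 232 stood alone, 42 runs held 2, and 60 runs of 3 or more held 339 (51.8%). Runs over 2 or more CpG positions held 63.1% of the DMCs lower in BN.

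The longest run with higher methylation in BN lay at bases 56338337 to 56339107 of chromosome 19, 21893 bases after the start of Gas8, a gene of the dynein regulatory complex of cilia. It held 22 DMCs among 35 tested CpGs. The run was at 31.5, 36.6 and 36.6% in BN and at 16.8, 21.4 and 8.10% in CD, and no BN rat overlapped the CD rats. Its coverage of 375 to 1664 reads per CpG far exceeded the median of the tested CpGs, and its part in the difference was not tested. At P18 the levels were 35.1, 34.3 and 28.3% against 14.3, 14.4 and 12.9%.

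The next was sharper. At bases 93882703 to 93882786 of chromosome 13 all 17 tested CpGs were DMCs, at 49.2, 34.9 and 45.3% in BN and 0, 0.282 and 0% in CD, on usual coverage. The P18 rats were at 47.0, 25 and 36.1% against 5.38, 0 and 0.800%. It lay 54202 bases from the nearest placed start. Another 17 DMCs, of 22 tested CpGs, lay at bases 79444881 to 79445131 of chromosome 14, 486 bases after the start of Ccdc96, a coiled-coil gene linked to cilia. They were at 32.3, 30.1 and 32.8% in BN and at 3.49, 2.21 and 0.920% in CD, and at P18 at 46.4, 57.2 and 42.3% against 4.10, 5.64 and 3.17%. In both runs every BN rat of either stage was between 25 and 57.2%, unlike the single CpGs described earlier, where BN was near 100%.

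A run of 12 DMCs lay at bases 37179935 to 37180022 of chromosome 19, 85 bases after the start of Phaf1, a phagophore assembly factor. The BN rats were at 30.6, 26.1 and 39.5% and the CD rats at 13.6, 11.2 and 9.90%. At P18 CD rat 3 was at 40.6%, above all 3 BN-P18 rats, whereas the other CD-P18 rats were at 10.1 and 13.0%. The last run was at bases 711839 to 711906 of chromosome 7, with 10 DMCs of 11 tested CpGs, at 40.1, 30.3 and 29.9% in BN and 3.96, 4.37 and 4.90% in CD.

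Most of the longest runs with lower methylation in BN lay in a single block of chromosome 1, whose DMCs lower in BN ran from base 11906717 to 11966977. It held 97 DMCs among 167 tested CpGs, 96 of them lower in BN, which were 14.7% of all DMCs lower in BN. The runs of 36, 13, 12 and 11 DMCs began at bases 11910023, 11910425, 11910989 and 11911710. In the first, at 36 of 37 tested CpGs, the BN rats were at 16.9, 13.8 and 20% and the CD rats at 66.8, 59.2 and 49.9%. Over the DMCs of the block the mean levels were 15.9, 12.3 and 19.2% in BN and 69.7, 60.2 and 52.6% in CD, so that all BN rats lay far below all CD rats. At P18 all 91 of these DMCs that were covered were lower in BN again and passed the test, with levels of 14.9, 3.98 and 30.4% against 50.4, 78.2 and 56.5%. Median coverage of the DMCs in the block was 227 to 1398 reads per rat, compared with 16 to 29 over all tested CpGs. The nearest placed gene start was that of Cited2, a transcriptional co-regulator, 0.856 Mb away. The part of this coverage in the difference was not tested. The fifth run, at bases 161564970 to 161565070 of chromosome 2, had 10 DMCs of 11 tested CpGs on usual coverage, at 17.3, 16.0 and 1.57% in BN and 48.0, 39.5 and 40.1% in CD.

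Regions, which sum the reads of neighbouring CpGs and were fixed by position alone, had smaller differences than single CpGs. Their median difference was 21.9 points when higher in BN and -20.9 when lower, and 8 higher and 7 lower regions exceeded 50 points. The widest with higher methylation in BN was a region of 3 CpGs at bases 94982887 to 94982918 of chromosome 2, at 94.4, 97.2 and 90.7% in BN and 21.3, 21.7 and 33.3% in CD. A region at bases 119713438 to 119713482 of chromosome 1 was at 82.3, 92.9 and 89.2% against 22.2, 18.5 and 23.1%. In both, no CD rat exceeded 33.3% and no BN rat was under 82.3%. At bases 46256562 to 46256620 of chromosome 14 the difference was 66.1 points, and 42.8 points at P18. At bases 6781349 to 6781415 of chromosome 12 the BN rats were at 97.7, 98.5 and 98.7% and the CD rats at 34.9, 32.3 and 41.0%.

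The region at bases 6191287 to 6191318 of chromosome 16 was at 93.9, 88.9 and 94.9% against 33.3, 31.3 and 33.3%, and at P18 at 95.9, 88.9 and 93.8% against 31.8, 29.1 and 28.6%. The 6 CD rats of both stages lay between 28.6 and 33.3%. The remaining 3 of the 8 widest were at bases 243257587 to 243257631 of chromosome 2 (59.5 points), bases 135742216 to 135742286 of chromosome 5, 6312 bases after the start of the zinc finger gene Zswim5 (51.2 points), and bases 116388206 to 116388306 of chromosome 7 (50.6 points at NP and 50.9 at P18).

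Among regions lower in BN, the widest was at bases 68826276 to 68826303 of chromosome 16, at 28.1, 18.2 and 19.3% in BN and 70.3, 97.1 and 67.8% in CD. A region at bases 191763559 to 191763591 of chromosome 1 was at 31.6, 48.4 and 40.8% against 98.0, 87.9 and 100%, and differed by -59.3 points at P18. It lay 59162 bases after the start of Scnn1g, which encodes a subunit of the epithelial sodium channel of the distal nephron. At bases 73216245 to 73216327 of chromosome 11, 17826 bases after the start of the xylosyltransferase gene Xxylt1, CD rat 3 was at 52.6% whereas the other CD rats were at 97.0 and 95.9%, and BN rats were at 27.6, 35.3 and 29.1%.

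The region at bases 46565360 to 46565429 of chromosome 14 shared the features of the block on chromosome 1. It was at 18.2, 12.7 and 21% in BN and 79.4, 73.0 and 63.4% in CD, its coverage was 91.3 times the median of the tested CpGs in BN and 50.4 times in CD, and at P18 it was at 18.2, 4.05 and 31.9% against 62.1, 86.3 and 68.9%. The order of the rats in each group was that of the chromosome 1 block at both stages. A region at bases 17309407 to 17309495 of chromosome 14, 26145 bases after the start of Naaa, an amidase of fatty acid ethanolamides, had 6 CpGs at 25.9, 30.6 and 31.0% in BN and 83.0, 81.4 and 85.2% in CD. A region at bases 213729818 to 213729875 of chromosome 1 was at 16.1, 15.4 and 12.2% against 57.4, 65.1 and 80.5%, and at P18 at 16.1, 5.45 and 10.6% against 61.5, 68.2 and 58.8%. The other 2 of the 8 lay in the chromosome 1 block, at differences of -50.8 and -49.7 points.

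CpGs at gene starts rarely differed. Those within 500 bases that did were more often lower in BN, counting each of several neighbouring CpGs. Starts were known only for the 6595 genes whose RefSeq promoter could be placed on the positions of the lists, which favours CpG-rich promoters. Within 500 bases of a placed start 91 of 138778 tested CpGs were DMCs (0.0656%), 19 higher and 72 lower in BN. From 500 to 5000 bases there were 87 higher and 21 lower (0.202% in all), from 5000 to 50000 bases 641 and 127 (0.502%), and farther away 1847 and 435 (0.636%). Mean levels near starts were 1.62 to 1.71% in BN rats and 1.61 to 1.74% in CD rats. In the farthest class they were 50.8 to 51.1%, so both strains were nearly unmethylated at starts. The share near starts was close to the 0.0691% among all tested CpGs with a mean level of 0 to 20%, wherever they lay. Those DMCs were also more often lower than higher in BN, by a smaller margin. Whether starts differed from other CpGs of equally low level was not tested. Of regions that overlapped a placed promoter, 7 of 5218 were called (0.134%), compared with 901 of 70573 others (1.28%). Counted so, the directions were nearly even over promoters, with 3 higher and 4 lower in BN, against 724 and 177 among the others.

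**Figure D3:**
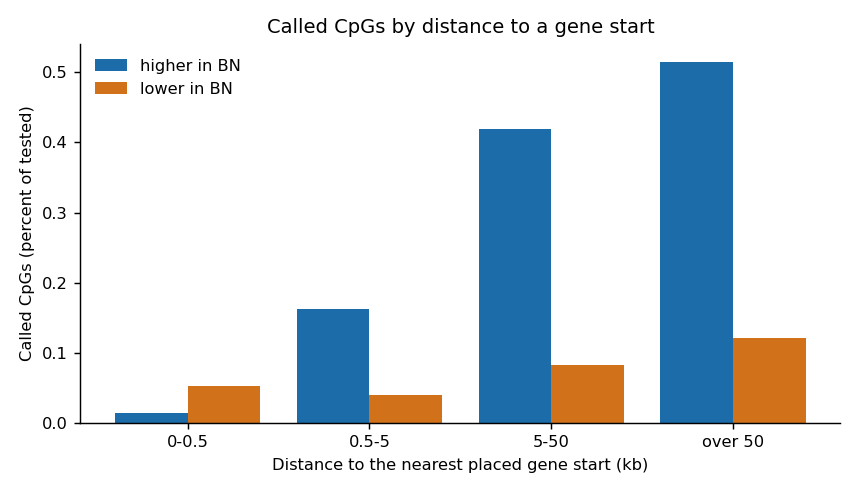
Percent of tested CpGs that were DMCs (y axis), higher and lower in BN, by distance to the nearest placed gene start (x axis, 4 classes, labelled in kb). DMCs higher in BN rise from 0.0137% within 500 bases to 0.515% beyond 50000 bases, and those lower in BN from 0.0519% to 0.121%.

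Several regions at or shortly after a placed start were nearly unmethylated in BN and partly methylated in CD. The Ddx46 region ran from base 9519410 to 9519543 of chromosome 17. It held 13 CpGs counted by strand, at 10 positions, of which the sequence printed above marks 3 with capitals. It was at 0.369, 0.495 and 0.676% in BN and at 19.5, 18 and 23.5% in CD, a difference of -19.9 points (adjusted p = 3.93e-06). Its coverage was 0.982 times the median of the tested CpGs in BN and 1.57 times in CD. All 6 P18 rats, those of CD included, were at 2.67% or less, with CD-P18 at 1.03, 0 and 0.685%. Tpt1, which encodes translationally controlled tumour protein, had 52 CpGs at bases 57891699 to 57892206 of chromosome 15, just after its start. They were at 0.627, 0.392 and 0.468% in BN and 22.3, 16.8 and 13.1% in CD, and at 0.570, 0.423 and 0.110% in CD-P18.

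Lmbrd2, a membrane protein gene, was alike. Its 36 CpGs at bases 58534540 to 58534844 of chromosome 2 were at 0.698, 1.03 and 0.448% in BN, at 16.5, 15.3 and 14.5% in CD, and at 1.40, 0 and 0.816% in CD-P18. At Tbc1d10b, a Rab GTPase activator, 10 CpGs 529 bases after the start were at 0, 0 and 0.289% in BN and at 21.6, 27.5 and 31.5% in CD, whereas CD-P18 rats were at 20.5, 1.35 and 1.45%. At Eif5, a translation initiation factor, and Cct6a, a chaperonin subunit, CD was higher at both stages. Eif5 was at 14.2, 13.3 and 18.3% in CD-NP and 6.6, 6.6 and 11.5% in CD-P18, and Cct6a at 18.6, 11.4 and 18.6% and at 12.5, 19.7 and 13.6%. At Bnip2 the CD rats themselves differed, at 0, 26.2 and 34.9%, and BN rats were at 1.37, 0.763 and 0%. The Bnip2 call was lost without CD rat 3 (-16.0 points, adjusted p = 0.703) and without BN rat 3 (adjusted p = 0.132). The Cct6a call was lost without BN rat 2, BN rat 3, CD rat 1 or CD rat 3 (adjusted p = 0.0918 to 0.629), whereas those of Ddx46, Tpt1, Lmbrd2, Tbc1d10b and Eif5 held without any 1 rat.

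The fourth called region lower in BN over a placed promoter, beside Ddx46, Tpt1 and RT1-CE5, was that of Ptchd3, a patched domain gene. Its 8 CpGs were at 1.49, 3.57 and 5.02% in BN and at 12.7, 21.4 and 11.5% in CD (adjusted p = 0.0418). At P18 the groups overlapped, at 16.1, 3.23 and 11.4% against 12.8, 23.8 and 16.9%, and the call at NP was lost without 5 of the 6 rats (adjusted p = 0.0556 to 0.263).

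Ddx46, Tpt1, Lmbrd2, Tbc1d10b, Eif5 and Bnip2 belong to 16 regions called lower in BN with each BN-NP rat at 5% or less. Of the 13 covered at P18, all 3 CD-P18 rats were at 5% or less in 5. Coverage relative to the median of the tested CpGs was 1.01 in BN and 1.41 in CD (medians over the 16), and higher in CD at 14 of the 16, compared with 48.9% of all tested regions, where the medians were 1.08 and 1.06. The part of coverage in these differences was not tested. None of the 13 regions covered at P18 passed the test of strain by stage that closes the account. The others, Bnip2 among them, could not enter that test.

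**Figure D4:**
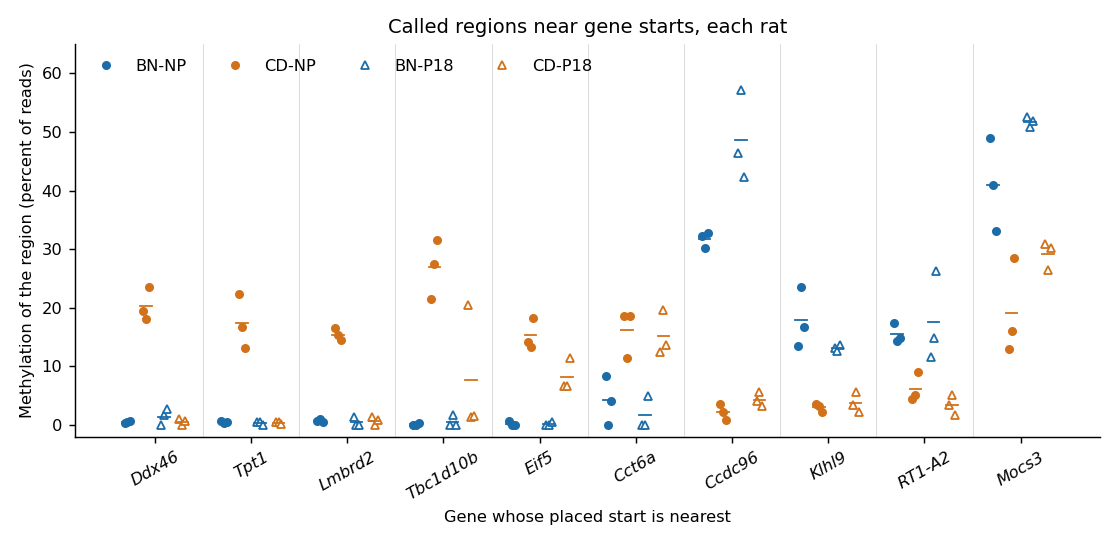
Methylation level (y axis, percent of reads) of each rat at called regions near the starts of 10 genes (x axis), with filled circles for NP rats, open triangles for P18 rats, 1 colour per strain, and dashes at the mean of 3 rats. CD-NP rats stand above BN-NP rats at Ddx46, Tpt1 and Lmbrd2, where the CD-P18 rats are at 1.40% or less.

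At Mt1 the difference lay in a group of neighbouring CpGs of the core promoter and recurred at P18. All 5 DMCs, at 49, 43, 36 and 12 bases before and 3 bases after the start, were on the minus strand, which is that of the gene. The one 43 bases before the start was at 0, 0 and 0% in BN and at 30.8, 50 and 38.5% in CD on 23 to 37 reads, a difference of -39.7 points (adjusted p = 6.83e-08). The P18 rats were at 0, 0 and 0% against 28.9, 37.0 and 33.8%. The others differed by -39.4, -23.4, -38.0 and -17.1 points, in that order, and each passed the test at P18 too. They are 5 of 57 tested CpGs within 5 kb of the start, and neither of the 2 regions of Mt1 was called. The related Mt2A had 1 DMC 1421 bases before its start, at 16.3, 12.8 and 7.50% in BN and 0% in each CD rat.

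RT1-CE5 presents class I antigen, and its region of 6 CpGs 40 to 107 bases before the start was at 0.299% in BN and 24.1% in CD over pooled reads. The CD rats were unlike each other. At the CpG 107 bases before the start, CD rats 1, 2 and 3 were at 21.3, 0 and 47.8% and all BN rats at 0%, and the CD-P18 rats were at 0, 15.2 and 13.3%. The groups overlapped through CD rat 2. The call of the region was lost without CD rat 3 (-14.6 points, adjusted p = 0.509) and without any 1 BN rat (adjusted p = 0.0625 to 0.155). Reads of near-identical class I genes can be assigned to the wrong copy, so these levels are uncertain. RT1-A2, another class I gene, had 3 DMCs lower in BN at 386, 393 and 402 bases after its start. All BN rats were at 0% there and CD rats 1 to 3 at 21.9, 0 and 17.6%, at 26.7, 0 and 18.8%, and at 20, 6.25 and 13.0%, so that CD rat 2 overlapped the BN rats at the first 2. It had 2 DMCs higher in BN at 880 and 892 bases, the last at 65, 44 and 42.9% against 3.13, 3.23 and 18.2%.

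Of the called regions over a placed promoter, 3 were higher in BN, those of Nobox, Dcdc2c and Dsc3. Nobox was at 70.4, 72.0 and 62.3% in BN and 32.3, 44.1 and 45.5% in CD, a difference of 27.7 points (adjusted p = 0.00412), and was not covered at P18. Dcdc2c had 33 CpGs counted by strand, at 29 positions, with levels of 86.6, 85.1 and 84.9% against 75.6, 76.9 and 71.7%. Its difference of 8.48 points at P18 did not pass the test (adjusted p = 0.432). Dsc3, a desmosomal cadherin, was at 64.7, 59.0 and 58.5% against 39.5, 30.8 and 50.4%. At P18 its groups overlapped, at 75.4, 58.7 and 44.4% against 15.1, 42.6 and 53.7%, and the test was not passed (adjusted p = 0.176). Other called regions lay near a start. Dazl, an RNA-binding protein of germ cells, was at 97.3, 92.6 and 95.0% against 78.3, 79.6 and 79.7%, in 5 CpGs 383 bases before its start, and was not covered at P18. Mocs3, an enzyme of molybdenum cofactor synthesis, was, 702 bases after its start, at 48.9, 41.0 and 33.1% against 13.0, 16.0 and 28.5% and again differed by 22.5 points at P18 (adjusted p = 0.000353). Each of these calls was lost on leaving out at least 1 of the rats, which leaves only 2 rats in a strain. Nobox was lost without CD rat 1 (22.0 points, adjusted p = 0.0538) and Mocs3 without BN rat 1 (18 points, adjusted p = 0.0562). Dazl was lost without BN rat 1, BN rat 3 or CD rat 2 (adjusted p = 0.0539 to 0.133), Dsc3 without any 1 rat but CD rat 3 (adjusted p = 0.121 to 0.200), and Dcdc2c without any 1 rat (adjusted p = 0.0530 to 0.155). Whichever rat was left out, the difference stayed at 14.7 to 16.8 points for Dazl and 9.31 to 11.3 points for Dcdc2c. In all there were 45 called regions within 5 kb of a placed start, and 12 of them held without any 1 rat.

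Lists of genes were counted by DMCs within 5 kb of a placed start, where 199 of 192342 tested CpGs were DMCs over all placed genes (0.103%). Few members could be placed. For drug metabolism and glutathione genes, which include the metallothioneins, 8 of 48 symbols were placed, and 6 of 279 CpGs were DMCs, 5 of them in Mt1 and 1 in Mt2A. For histocompatibility genes 7 of 35 were placed, and 11 of 180 CpGs were DMCs, 9 lower and 2 higher in BN, all at RT1-CE5 and RT1-A2. Hox genes, which pattern the body axis, had 9 of 52 placed and 0 DMCs among 465 CpGs. Imprinted genes, methylated by parent of origin, had 6 of 33 placed and 0 DMCs among 351 CpGs. Nephron marker genes had 3 of 18 placed and 1 DMC among 86 CpGs, at 2087 bases after the start of Aqp3, the glycerol and water channel of the collecting duct, at 50, 25 and 48.4% in BN against 13.6, 0 and 0% in CD. Solute transporters had 9 of 42 placed and 1 DMC among 266 CpGs, which is the same CpG of Aqp3, a member of both lists. Median absolute differences in these lists were 0 to 2.27 points.

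By chromosome, the share of tested CpGs that were DMCs ranged from 0.309 to 0.689% over chromosomes 1 to 20 and X, with a median of 0.451%. Chromosome 14 had the highest share, with 172 DMCs of 24981 CpGs (137 higher and 35 lower in BN). Chromosomes 2 (0.615%, 196 higher and 63 lower) and 11 (0.598%, 67 and 36) followed. Chromosome 10 had the lowest share, with 167 of 54101 (140 higher and 27 lower), followed by X (0.369%, 36 and 11) and 8 (0.389%, 121 and 27). DMCs were mostly higher in BN on every one of these chromosomes, from 60.1% of them on chromosome 1 to 91.7% on chromosome 6, with a median of 82.5%. Chromosome 1 was low because of its block. Outside the block, 284 of its 76259 CpGs were DMCs (0.372%), and 228 of these (80.3%) were higher in BN. Without the block the ratio of higher to lower DMCs over the genome rose from 3.96 to 4.64.

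Mean levels by chromosome differed by -0.178 to 0.871 points between the strains. The widest was X, at 55.7, 55.3 and 56.2% in BN and 55.5, 54.3 and 54.6% in CD (exact permutation test, two-sided p = 0.2), and its groups overlapped. On chromosomes 1 and 16 the groups did not overlap, with all BN rats lower by 0.178 and 0.152 points on average, which reached the smallest possible p of 0.10. These were 2 of 21 chromosomes, about the share that an exact permutation p of 0.10 for each would give without any difference. In these females, 8 CpGs of chromosome Y and 10 of the mitochondrial genome had enough reads, with 1 and 0 DMCs.

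**Figure D5:**
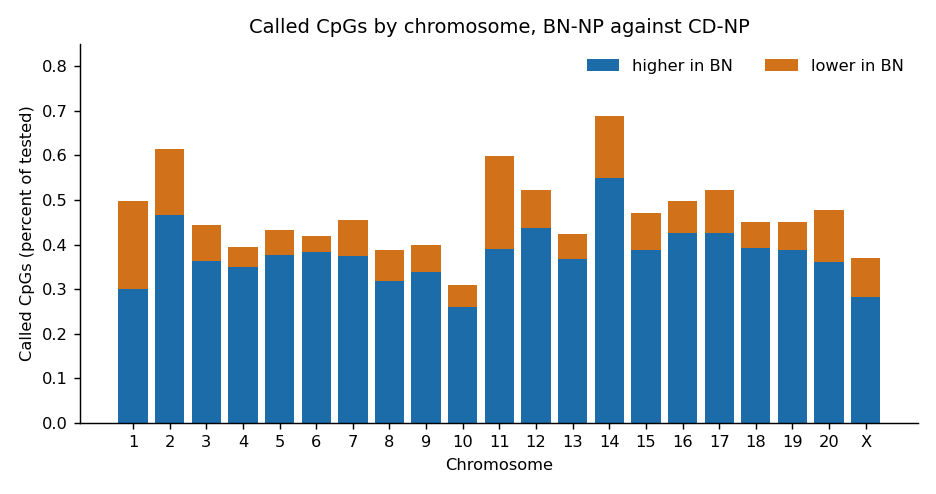
DMCs as a percent of tested CpGs (y axis) by chromosome (x axis), split into those higher and lower in BN. Chromosome 14 has the highest total (0.689%) and chromosome 10 the lowest (0.309%), and chromosome 1 has a large lower part because of its block near 12 Mb.

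Over windows of 5 Mb the DMCs were spread widely. Of 554 windows with at least 100 tested CpGs, 60 held no DMC, and the median was 4 DMCs (0.415%). The window of chromosome 1 from 10 to 15 Mb, which holds the block, had 100 DMCs among 1026 CpGs (9.75%), 96 of them lower in BN. Next came chromosome 19 from 55 to 60 Mb, with 35 DMCs among 4606 CpGs, 34 of them higher in BN and 22 of them in the run near Gas8. Chromosome 20 from 5 to 10 Mb had 32 among 5116 CpGs, 23 of them higher, in 22 runs of which the largest had 4. Chromosome 3 from 10 to 15 Mb had 31 among 3597 CpGs, with 10 in the largest run, and chromosome 12 from 35 to 40 Mb had 30 among 3672 CpGs. Apart from the first, these windows were at 0.625 to 0.862%, and held many tested CpGs.

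Rats at P18, which share no animal with the comparison above, were fitted on their own, giving 4551 DMCs among 827584 CpGs (0.55%) and 695 called regions among 52006 (1.34%). Of the DMCs with more methylation in BN at NP, 1830 were covered in the P18 rats, 1778 had the same direction and 1344 (73.4%) were DMCs, with a median difference of 52.2 points at NP and 49.2 at P18. Of those lower in BN, 475 were covered, 451 had the same direction and 241 (50.7%) were DMCs, with medians of -34.2 and -25.6 points. At none of the CpGs was a difference called in the opposite direction at P18. Among called regions 655 were covered and 393 (60%) were called at P18. An interaction of strain with stage over regions, fitted to all 12 rats and chosen after the data had been seen, gave 0 of 52006 regions at an adjusted p under 0.05 and 1627 at an unadjusted p under 0.05. The smallest adjusted p was 0.0536, for 8 CpGs at bases 62595146 to 62595274 of chromosome 18, where CD rats were at 61.7, 63.3 and 59.1% at NP and 91.2, 92.1 and 93.9% at P18, and BN rats at 94.6, 90.6 and 92.1% and at 90.2, 88.3 and 90.9%.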

How the data were processed

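Bisulfite libraries of kidney DNA from 12 rats were assigned to strain, stage and replicate number by their deposited labels. Per the methods and the labels, the authors trimmed reads with Trim Galore (0.4.5 in the submitters' processing notes) and the kit's own scripts, removed duplicates by molecular tag, aligned to Rnor_6.0 with Bismark 0.16.34 and exported lists for methylKit 1.16.1. Each deposited list gives for a CpG on 1 strand its read count (coverage) and the percent of methylated and unmethylated reads, with a lowest coverage of 5 reads. Whole methylated reads were recovered from coverage and percent to within 0.005 points. RNA counts of the same series were not used, because they name genes by identifiers that were not paired with symbols here.

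A logistic model was fitted per CpG and strand (R 4.3.3) where each of the 6 libraries had 10 or more reads. Its dispersion was moderated with limma 3.58.1, using a coverage trend and a prior from CpGs at 10 to 90%, and was never under 1. The F test was adjusted by Benjamini-Hochberg over all CpGs, and calls needed an adjusted p under 0.05 and over 10 points between pooled reads. Regions were chains of at least 3 tested CpGs with gaps of at most 100 bases, tested on summed reads. The script was tested on simulated data that had the same spread at all CpGs and in all rats, with changes at middle levels. This does not cover the wider ranges seen among CD rats. Labels do not say whether rats share litters. The p-values of the logistic model rest mainly on the shared dispersion (prior degrees of freedom 117.8 for CpGs and 15.38 for regions). They therefore measure little of the spread between these rats at a single CpG. The shared dispersion of CpGs had a median of 1.09, where 1 is counting error alone. Read counts limit the precision, and intervals between reads would cover counting error only.

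With no genome or annotation of Rnor_6.0 at hand, RefSeq promoters (GRCr8) were placed where at least 10 CpGs of the lists fell on CpGs of the sequence, with 3 more than at any other place. This placed 7218 of 13872 promoters, and 2 of 13872 when searched on a wrong chromosome. Distances are to these placed starts, and genes are named from them rather than from an annotation. Named in the text were, per direction, the 5 CpGs with the largest difference among those with rats not overlapping, the 5 runs with the most DMCs and the 8 widest called regions, then the 3 chromosomes at each end and the 5 fullest windows. The 7 called regions over a placed promoter, DMCs of the listed genes and some called regions near a start were named in addition. The members, lists and rules were chosen with earlier results of these data known. Promoter examples, the printed sequences, the block of chromosome 1 and the test of strain by stage were chosen after values were seen.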

Additional observations from a re-analysis of the deposited data

How the results depend on the processing

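At least 20 reads in each rat left 594 DMCs among 61080 CpGs (368 higher and 226 lower in BN, or 62.0% higher against 79.8% in the report) and 76 regions (58 and 18), and 577 of the 590 reported DMCs still tested were called. At least 5 reads gave 5769 DMCs (4735 and 1034) and 1635 regions (1320 and 315). Without overdispersion there were 4114 DMCs (3105 and 1009) and 2581 regions (1634 and 947, 63.3% higher against 80.1%), and with a dispersion of each CpG alone 0 of both. Taking the larger of the shared and own dispersion, added after seeing the data, gave 1988 DMCs (1528 higher) and 663 regions. An adjusted p under 0.01 with over 25 points left 2594 DMCs (403 lower) and 288 regions (238 and 50), and a minimum of 5 CpGs left 426 regions (330 and 96). Leaving out 1 rat gave 2274 to 3113 DMCs (1902 to 2519 higher, 372 to 594 lower) and 548 to 858 regions (446 to 692 higher, 102 to 166 lower), lowest without BN rat 3. DMCs lower in BN were 423 without BN rat 1 and 372 without BN rat 3, and regions lower in BN 112 without BN rat 2. Fisher's exact test on pooled reads gave 3685 DMCs and summed strands 3404.

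The replicate block, with rats of the same number paired, gave 2362 DMCs (1969 higher and 393 lower), 2342 of them among the 3249 reported, and 984 regions. Deviations of same-numbered rats correlated by 0.019, 0.010 and -0.002 across CpGs. Those of the other pairs of a BN and a CD rat correlated by -0.020 to 0.009. All values are close to none, and so few pairs cannot decide whether the numbers mark a pairing.

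The mean level difference of -0.046 points turned to 1.39 when CpGs were weighted by reads (exact permutation p = 0.3) and to 0.032 without CD rat 1, and lay between -0.107 and 0.032 over the 6 removals. The causes were not tested. Directions of the counts (more DMCs higher than lower) held under all these settings that made calls. The 10 widest CpGs kept their calls in all 141 comparisons outside the own dispersion, and the widest regions and those near starts in 611, with 192 lost and 0 reversed. No alternative was computed for the other single CpGs named, some of which had an adjusted p close to 0.05. The RNA comparison and its alternatives were not run.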
